A study of Mus musculus with 113 samples.

Results

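The undifferentiated state of a *Fyn* knockout (KO) line of mouse embryonic stem cells (mESCs) was compared with that of its wild-type (WT) parent by bulk RNA-seq, before neural induction began. The libraries were taken by their labels, 3 of WT E14 cells at day 0 and 3 of *Fyn* KO E14 cells at day 0, which makes 6 of the 113 samples in the series. E14 is an established mESC line. In the series mESCs were followed through neural differentiation as cell populations and as single cells, and the same E14 lines were also profiled at day 4 (3 libraries each), which are used here for comparison only. The KO line was made with Cas9 and a pair of guides that cut out a part of *Fyn* on chromosome 10 including the initiation codon, and it is 1 clone, so the knockout and other features of that clone cannot be told apart. No further allele, drug or treatment is given for either line at day 0. The labels do not say whether replicates came from separate cultures, so p-values measure only the spread between these libraries, which may in part be technical.

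Fyn is one of the Src family kinases, non-receptor tyrosine kinases anchored at the inner face of the plasma membrane. They pass signals from integrins, growth factor receptors and antigen receptors to adaptor proteins and the cytoskeleton, and they are held inactive by phosphorylation of their tail by Csk. Undifferentiated mESCs express several of these kinases. The cells stay in their self-renewing state through a network of transcription factors around Pou5f1, Sox2 and Nanog, while FGF and ERK signalling moves them towards a formative state that can respond to neural induction. The day 0 comparison addresses what the line was like before that step.

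Values are FPKM, Cufflinks estimates of expression scaled by transcript length and by the mapped fragments of the library, and differences are KO minus WT on the log2(FPKM + 1) scale, which understates changes of low genes. Of 23107 genes in the table, 12257 reached 1 FPKM in at least 3 of the 12 E14 libraries and were tested in limma with Benjamini-Hochberg adjustment over all of them. A gene is said here to have risen or fallen when its adjusted p was below 0.05, and groups are said not to overlap when each KO library lay beyond each WT library. At day 0, 21 genes passed (0.171% of those tested), of which 5 were higher in KO (0.0408%) and 16 lower (0.131%). At an unadjusted p below 0.05 there were 1785 genes (14.6%). Groups did not overlap for 1283 genes that were higher in KO (10.5%) and 1339 that were lower (10.9%), and these shares are the background for the counts of list members given later. The median difference over the genes tested was 0.0031.

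The libraries of each line also differed from each other. Correlations of log2(FPKM + 1) were between 0.931 and 0.981 for the 6 pairs of libraries of 1 line and between 0.917 and 0.967 for the 9 pairs of libraries of different lines. Over 7876 genes with a mean of at least 5 FPKM, the median SD between replicates was 0.198 in WT and 0.194 in KO. Without KO replicate 3 the KO value was 0.104, and without WT replicate 1 the WT value was 0.139. The first principal component, with 41.9% of the variance, set KO replicate 3 (53.3) apart from the other libraries rather than KO from WT. On the first component of all 12 E14 libraries, KO replicate 3 stood at -11.99. There the other day 0 libraries lay between -58.1 and -36.4 and the day 4 libraries between 34.9 and 51.2. KO replicate 3 correlated at 0.917 to 0.950 with the other day 0 libraries and at 0.874 to 0.938 with those of day 4. Why it differed was not tested. Leaving out WT replicate 1 raised the number of genes called from 21 to 161, all 21 among them, and leaving out KO replicate 3 gave 30 genes, of which 11 were among the 21. Read totals are not used here because the table holds FPKM only. The number of genes listed at 0 ran from 7025 to 7271 in WT and from 7247 to 7982 in KO, with means of 7152 ± 123 and 7715 ± 407 (SD, n = 3 each, exact two-sided permutation p = 0.2).

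*Fyn* was the first gene examined, since it checks the labels. Its FPKM was 3.21, 2.74 and 4.00 in the WT libraries and 0.598, 0.598 and 1.10 in the KO libraries, with means of 3.32 ± 0.640 and 0.765 ± 0.290 (SD, n = 3 each). The groups did not overlap, which gives p = 0.1 in the exact two-sided permutation test, the smallest that 3 against 3 allows. In limma the difference was -1.29 with a standard error of 0.242 and an adjusted p of 0.0601, so *Fyn* missed the threshold at day 0 by a small margin. It was past the threshold at day 4 (-1.74, adjusted p = 0.0193), where WT levels were higher (9.44, 4.54 and 6.76 against 1.19, 1.13 and 1.58 FPKM in KO). That day 4 call was kept without WT replicate 2 and was lost when any other single day 4 library was left out. The KO libraries were not at 0. The deletion leaves the last exons in place, and the table holds 1 value for the whole gene, so where in the gene these reads fell was not tested. *Fyn* spans chr10:39369743-39565381 in GRCm38.p6, the RefSeq assembly that corresponds to the mm10 build of the table. Of its tested neighbours, *Fam229b* (-0.54), *Traf3ip2* (-0.36), *Tube1* (0.03) and *Rev3l* (0.09) did not pass the test.

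The other Src family kinases described here did not pass the test either. *Yes1* (18.4, 25.1 and 31.2 FPKM in WT, 28.1, 31.8 and 13.9 in KO) and *Src* (16.96, 15.2 and 21.0 in WT, 16.5, 15.9 and 10.1 in KO) had overlapping groups, and on this scale per transcript length their levels were above those of *Lck* and *Lyn* in each library. *Lck* and *Lyn* lay between 1.74 and 7.87 FPKM in the 6 libraries and overlapped as well. *Fgr* and *Frk* stayed at or below 1.38 FPKM and *Blk* was listed at 0 in all 6. Over the whole list of Src kinases, the enzymes that set their activity and their adaptors and substrates, 24 of 32 genes were tested, none passed, and the median difference was -0.0298.

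**Figure D1:**
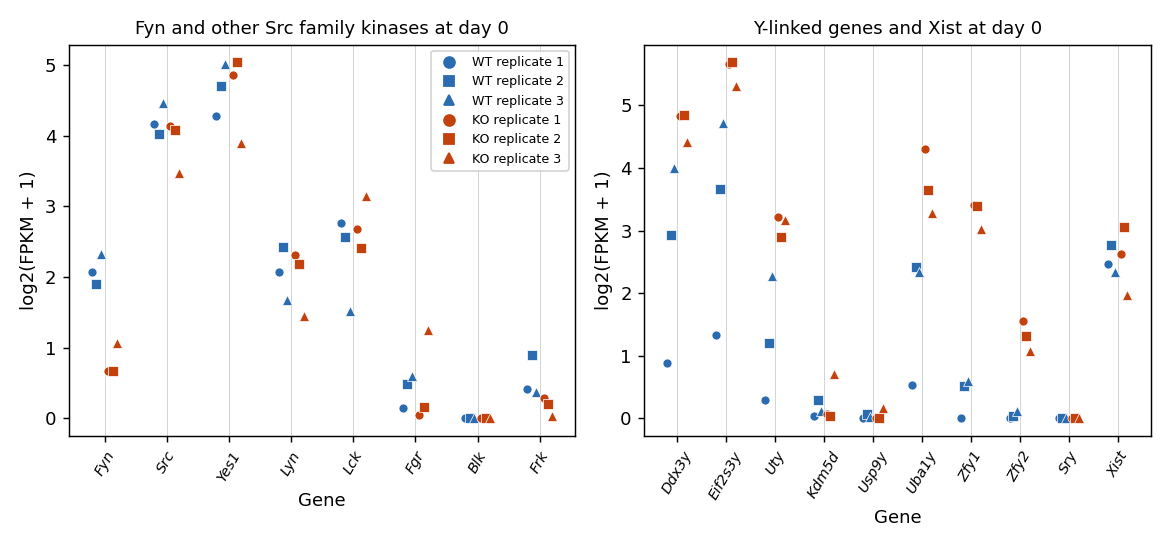
Expression of Fyn and other Src family kinases (left) and of Y-linked genes and Xist (right) in each day 0 library, with log2(FPKM + 1) on the vertical axis, WT in blue and KO in red, and the marker shape giving the replicate. Fyn is lower in the 3 KO libraries with no overlap, and the expressed Y-linked genes are higher in KO while differing widely among the WT libraries.

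Among the genes that passed the test, the smallest p-values belonged to *Zfy1*, *Pfdn2*, *Mum1* and *Nit1*. *Pfdn2* encodes a subunit of prefoldin, the co-chaperone that hands newly made actin and tubulin to the cytosolic chaperonin. It fell from 205, 207 and 174 FPKM in WT to 62.4, 60.8 and 75.0 in KO, a difference of -1.55 with a standard error of 0.136 and an adjusted p of 0.000678. *Nit1*, a nitrilase family hydrolase that clears deaminated glutathione, fell from 20.8, 16.3 and 16.4 to 5.16, 5.26 and 5.69 FPKM (-1.56, standard error 0.154, adjusted p = 0.00126). These genes lie head to head on chromosome 1, *Nit1* on the minus strand at chr1:171340571-171345656 and *Pfdn2* on the plus strand at chr1:171344954-171359254. Their RefSeq ranges overlap, and where a read fell in the overlap the gene it came from is uncertain, since the counting is not stated to use strand. The stretch between their starts is shown because both genes at this locus fell. The starts are those of the RefSeq promoter windows, 171345645 for *Nit1* and 171345675 for *Pfdn2*, and the gene ranges extend beyond them. It covers chr1:171345616-171345704 of GRCm38.p6 (RefSeq, plus strand), with the 29 bases between the starts in capitals and 30 bases of each gene on either side.
Pfdn2 and Nit1: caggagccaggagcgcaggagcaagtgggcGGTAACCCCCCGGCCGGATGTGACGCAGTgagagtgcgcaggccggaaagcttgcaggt

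Such an arrangement was not rare. Among 9107 tested genes with a RefSeq promoter window, 196 pairs had divergent starts within 100 bases, and in 6 of them both groups were separated with KO lower. *Dedd*, which encodes a death effector domain protein and overlaps the other end of *Nit1* (chr1:171324661-171342501), was measured at 15.1, 15.6 and 9.75 FPKM in WT and 6.25, 4.34 and 6.57 in KO. Its difference of -1.10 did not pass (adjusted p = 0.0601), and it is named because of its position, after its values were seen. *Usf1*, a transcription factor gene farther along the chromosome, overlapped between the lines (-0.26). Other prefoldin subunits did not pass: *Pfdn1* had a difference of -0.67 with no overlap (adjusted p = 0.12), and *Pfdn4*, *Pfdn5* and *Vbp1* lay between -0.17 and -0.01 with overlapping groups. The fall of *Pfdn2* and *Nit1* was of similar size at day 4, at -1.32 (adjusted p = 0.00147) and -1.56 (adjusted p = 0.00125).

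*Mum1*, on chromosome 10 at chr10:80226431-80245144, encodes a PWWP domain chromatin protein linked to DNA repair. It fell from 12.6, 18.9 and 14.9 FPKM to 3.83, 4.17 and 3.32 (-1.77, adjusted p = 0.00126) and was again lower at day 4 (-1.79, adjusted p = 0.00125), where WT gave 11.5 to 13.9 FPKM and KO 2.39 to 3.11. *Pfdn2*, *Nit1*, *Mum1* and *Zfy1* were the 4 genes of the 21 that passed the test at both days.

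The largest falls were those of a pair of lens proteins. *Cryge* and *Crygd* encode gamma-crystallins, structural proteins of the lens fibre that are made in mESCs at low and uneven levels. *Cryge* was measured at 4.47, 22.2 and 11.8 FPKM in WT and was listed at 0, 0 and 0.360 in KO (-3.41, standard error 0.407, adjusted p = 0.00598). *Crygd* was measured at 4.03, 32.1 and 8.40 FPKM in WT and at 0.142, 0.629 and 0 in KO (-3.24, standard error 0.519, adjusted p = 0.0337). WT replicate 2 was the highest library for both and WT replicate 1 the lowest WT library. These paralogs are alike in sequence, so reads could have been split between them and the value of either is uncertain. *Cryga*, another member of the cluster, was measured at 1.28, 8.62 and 3.51 FPKM in WT and 0.455, 0.671 and 0.780 in KO, with no overlap and an adjusted p of 0.223. At day 4 both called crystallins were low in both lines, with *Cryge* at most 0.353 FPKM and *Crygd* at most 0.561, and the differences were -0.16 and -0.28.

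The regions around the crystallin starts are shown because both genes lost nearly all signal in KO and share most of this sequence. Each runs from 100 bases before the RefSeq start to 30 bases into the gene on the minus strand of GRCm38.p6, *Cryge* at chr1:65051134-65051263 and *Crygd* at chr1:65063411-65063540, with the longest run that is identical in both (78 bases) in capitals.
Cryge: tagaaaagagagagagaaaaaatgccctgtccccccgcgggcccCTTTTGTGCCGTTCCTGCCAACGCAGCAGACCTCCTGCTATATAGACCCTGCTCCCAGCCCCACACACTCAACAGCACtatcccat
Crygd: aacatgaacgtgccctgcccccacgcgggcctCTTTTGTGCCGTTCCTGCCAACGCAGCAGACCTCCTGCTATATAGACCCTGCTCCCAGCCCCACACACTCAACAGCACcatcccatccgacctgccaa

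Over their whole windows of 300 bases, 69.3% of positions were identical, against 46.7% for the windows of *Zfy1* and *Zfy2*. The shared run holds TATATA, 6 letters that read the same on both strands, which occurs in 5.67% of 32851 mouse promoter windows of that length. The match is a description of the letters and says nothing about which factor bound there.

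Of the genes that rose, *Gpc3* showed the largest difference. Glypican 3 is a heparan sulfate proteoglycan of the cell surface that modulates Wnt, Hedgehog and growth factor signals. On the X chromosome at chrX:52272426-52613974, it rose from 5.01, 1.71 and 5.36 FPKM in WT to 27.9, 26.2 and 57.5 in KO (2.93, standard error 0.384, adjusted p = 0.0127). At day 4 WT had reached 30.3, 40.5 and 54.0 FPKM and KO stood at 30.9, 30.1 and 52.2, so that the groups overlapped (-0.15). The change of its difference between days, -3.08, had an adjusted p of 0.577. *Gpc4*, a neighbour of the same family that shares the locus, was measured at 12.3, 12.02 and 13.3 FPKM in WT and 9.65, 11.1 and 6.43 in KO, a difference of -0.46 that did not pass.

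*Baiap2*, an adaptor that couples Rac and Cdc42 to actin at curved membranes, rose from 11.7, 8.68 and 11.8 FPKM to 23.5, 22.8 and 21.7 (1.02, adjusted p = 0.0159). *Pgrmc1*, a heme-binding membrane protein, rose from 34.0, 24.7 and 28.6 to 50.2, 49.4 and 63.3 FPKM (0.88, adjusted p = 0.0355). *Aldh1l2*, a mitochondrial enzyme of folate metabolism, rose from 0.797, 0.583 and 1.08 to 3.07, 5.86 and 3.55 FPKM (1.47, adjusted p = 0.0375). Each KO library was above each WT library for all 3. At day 4 *Baiap2* still did not overlap (0.47), whereas *Pgrmc1* (-0.14) and *Aldh1l2* (0.29) did, and none of the 3 passed there.

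The remaining falls spanned several functions. At the plasma membrane, the cytokine receptor gene *Tnfrsf8* (CD30) went from 1.95, 4.63 and 4.19 FPKM to 0.295, 0.563 and 0.261 (-1.69), and the metalloprotease gene *Mep1b* from 3.05, 3.53 and 2.92 to 0.308, 0.488 and 0.105 (-1.69). *Ngfr*, the p75 neurotrophin receptor, went from 14.4, 9.15 and 12.7 to 3.13, 3.98 and 3.27 FPKM (-1.53). Their adjusted p-values were 0.0256, 0.00598 and 0.0256, and at day 4 the groups overlapped for each of them. *Dcbld1*, another membrane protein gene, fell by 1.16, with 10.8, 10.4 and 10.1 FPKM in WT and 3.14, 4.08 and 5.36 in KO.

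In membrane traffic and protein folding, *Trappc1*, a subunit of the TRAPP vesicle tether, fell by 1.304 (54.5, 36.6 and 45.1 against 18.6, 17.7 and 16.5 FPKM). *Atg14*, which directs the lipid kinase that starts autophagosomes, fell by 1.14 (20.7, 32.1 and 24.8 against 9.85, 12.7 and 10.7). The endoplasmic reticulum chaperone gene *Calr* fell by 0.82, from 313, 361 and 391 to 189, 224 and 189 FPKM, which made it the most abundant of the called genes. *Asna1*, an ATPase that inserts tail-anchored proteins into membranes, fell by 0.70, from 216, 212 and 228 to 126, 139 and 138, and is outside the rule for named genes, being named after its values were seen to complete the 16. The mitochondrial gene *Lyrm2* (-1.24), the cofilin phosphatase gene *Ssh2* (-1.09) and the ubiquitin ligase subunit gene *Fbxo25* (-0.92) complete the group. Adjusted p-values of these genes and of *Dcbld1* lay between 0.0161 (*Asna1*) and 0.0385 (*Fbxo25*). For *Trappc1*, *Calr*, *Asna1*, *Lyrm2*, *Ssh2* and *Fbxo25* the groups were also separated with KO lower at day 4, without passing the test there.

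**Figure D2:**
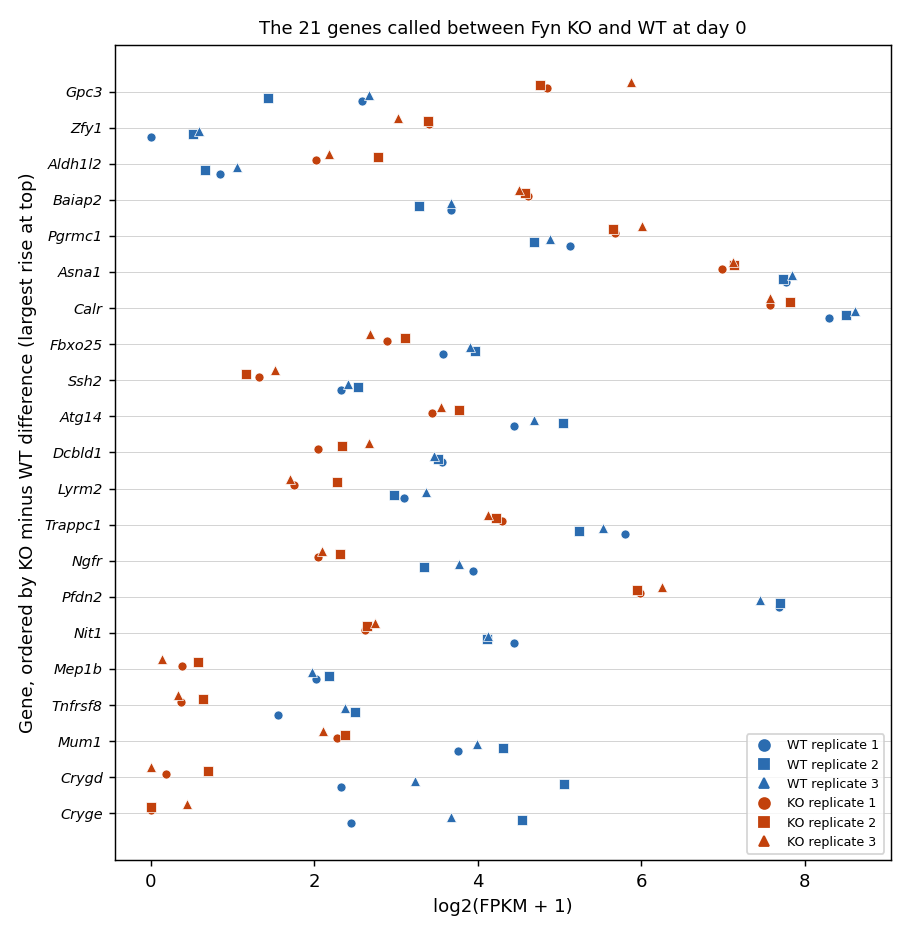
Levels of the 21 genes that passed the test at day 0, one row per gene ordered by the KO minus WT difference, with log2(FPKM + 1) on the horizontal axis, WT libraries in blue and KO libraries in red. For each of the 21 genes the 3 KO libraries lie on one side of the 3 WT libraries, and the WT spread is widest for Cryge and Crygd.

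Of the 21 genes, 18 had the same sign at day 4, and 12 were separated at day 4 in the same direction. These were 2 of the 5 that rose and 10 of the 16 that fell, where 6.54% and 9.99% of all tested genes were separated at day 4 with KO higher and lower. At day 4, where 9 genes passed (0.0734% of those tested, 1 higher and 8 lower), 5 were not among the 21, and these included *Fyn* and *Prkaca*, a protein kinase A subunit gene on chromosome 8. The test of the difference between days called no gene in limma, with 537 genes at an unadjusted p below 0.05 (4.38%), and 2 genes (1 higher, 1 lower) with the replicate number as a block, so the day 0 differences that were small at day 4 are not shown to be particular to day 0. The number of calls at day 0 depended on which libraries entered. Of the 21 genes, 6 (*Pfdn2*, *Gpc3*, *Mum1*, *Nit1*, *Mep1b* and *Zfy1*) kept the call in at least 15 of up to 17 alternative analyses, and with the 6 day 0 libraries alone the calls were *Pfdn2* and *Zfy1*. *Cryge*, which entered only 15 alternatives, kept its call in 14 of them.

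Genes next in rank among those higher in KO had no overlap and narrowly missed the threshold. *Atf5*, a transcription factor of the amino acid and mitochondrial stress responses, was measured at 6.56, 10.2 and 13.4 FPKM in WT and 30.8, 61.0 and 24.5 in KO (1.79, adjusted p = 0.0569). *Stmn2*, a tubulin-binding protein best known from growing neurons, was measured at 69.3, 12.9 and 25.4 FPKM in WT and 168, 110 and 157 in KO (2.28, adjusted p = 0.0754). WT replicate 1 had the highest WT level of *Stmn2* and the lowest of *Atf5*. *Cds2*, which makes the lipid intermediate CDP-diacylglycerol, gave 10.6, 15.3 and 20.6 FPKM in WT and 34.4, 43.0 and 29.96 in KO (1.19, adjusted p = 0.0705).

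Of the 16 genes that fell, chromosome 1 held 4, chromosomes 8 and 11 held 3 each, chromosomes 4 and 10 held 2 each and chromosomes 14 and 18 held 1 each. Chromosomes 1, 8, 11 and 14, with 11 of the 16, held 22.6% of the 12203 tested genes with a position. Chromosomes 1, 8 and 11 had 662, 655 and 1015 tested genes. Medians over whole chromosomes were lowest on chromosomes 8, 6, 1 and 14, of which chromosome 6 held no call. Among genes with a mean of at least 5 FPKM, the median difference was -0.363 on chromosome 8 (458 genes, 91.5% of them below 0), -0.269 on chromosome 6 (358 genes, 84.9%), -0.256 on chromosome 1 (429 genes, 82.5%) and -0.244 on chromosome 14 (279 genes, 81.4%). Chromosome 11 had a median of -0.0957, and on the 15 other chromosomes, leaving chromosome Y aside, the medians lay between 0.0096 and 0.108. No test was made over the genes of a chromosome, which are not replicates.

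Separated groups gave the same picture. On chromosome 8, 41.1% of 655 tested genes had each KO library below each WT library, against 10.9% over all genes and between 3.73 and 7.83% on the 15 other chromosomes. The shares were 21.9% on chromosome 1, 21.6% on chromosome 14 and 18.2% on chromosome 6. Chromosome 11 had 18.1%, but also 12.5% separated with KO higher, where chromosomes 1, 6, 8 and 14 had between 1.07 and 3.32%. Within chromosomes 1, 6, 8 and 14 the median was below 0 in each window of 20 Mb with at least 20 genes, from -0.216 to -0.348 on chromosome 1 and from -0.316 to -0.450 on chromosome 8. Chromosome 11 differed along its length. Its windows at 60 to 80 Mb and 80 to 100 Mb had medians of -0.284 (170 genes) and -0.379 (127 genes), that at 40 to 60 Mb had 0.249 (89 genes), and those at 0 to 20 and 100 to 120 Mb had 0.0642 and 0.0027. The 3 genes of this chromosome that fell lie in the windows with medians below 0, *Trappc1* starting at 69323986, *Ssh2* at 77216157 and *Ngfr* at 95568818.

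The libraries of the WT line carried most of the variation in these medians. As a deviation from each gene's mean over the 6 libraries, chromosome 1 stood at 0.245 and 0.227 in WT replicates 1 and 2 but at -0.0935 in replicate 3, where the KO libraries lay between -0.148 and -0.0984. Chromosome 14 gave 0.301, 0.152 and -0.0575 in WT and between -0.160 and -0.108 in KO. Chromosome 6 followed another order, with -0.108, 0.166 and 0.359 in WT and between -0.163 and -0.118 in KO. Of these 4 chromosomes, chromosome 8 was the one on which each WT library lay above 0, at 0.115, 0.139 and 0.277, with KO between -0.187 and -0.162. The KO libraries thus resembled each other on all 4 chromosomes, whereas WT replicate 3 sat close to KO on chromosomes 1 and 14 and WT replicate 1 on chromosome 6.

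**Figure D3:**
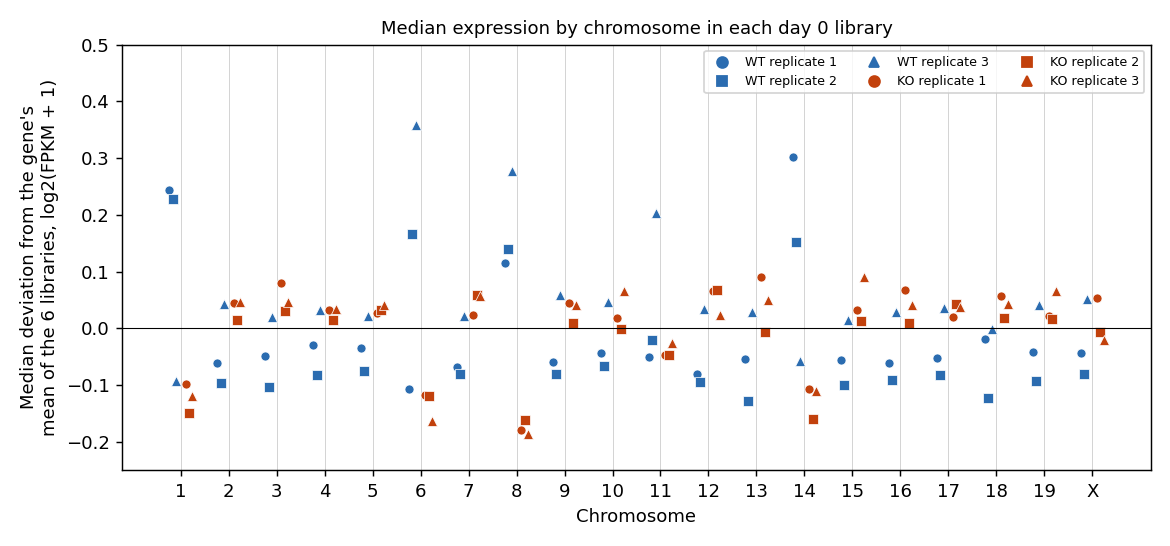
Median deviation of each day 0 library, chromosome by chromosome, from each gene's mean over the 6 libraries, on the log2(FPKM + 1) scale and for genes with a mean of at least 5 FPKM. WT libraries (blue) reach 0.359 on chromosome 6 and 0.301 on chromosome 14, KO libraries (red) lie below 0 on chromosomes 1, 6, 8 and 14, and the Y chromosome, with 6 tested genes, is not drawn.

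On chromosomes 1, 14 and 6 the WT libraries stood in the same order at day 4. Chromosome 1 stood at 0.294, 0.253 and -0.145 in WT replicates 1, 2 and 3 at day 4, chromosome 14 at 0.301, 0.141 and -0.0784, and chromosome 6 at -0.0828, 0.234 and 0.269, each as a deviation from the mean over the 6 day 4 libraries. On chromosome 8 the order was another one, with 0.247, 0.186 and 0.228 at day 4. The KO minus WT medians at day 4 were -0.419 on chromosome 8, -0.289 on chromosome 6, -0.262 on chromosome 1 and -0.240 on chromosome 14, and on the 15 other chromosomes they lay between -0.0023 and 0.0748. Set against the undifferentiated library of the R1 line in adherent culture, a separately normalized table with 1 library and hence no replicate check, chromosome 8 stood at -0.223, -0.186 and -0.168 in the WT libraries and at -0.496, -0.521 and -0.544 in KO. For chromosome 1 the values were 0.515, 0.540 and 0.0841 in WT and between 0.0860 and 0.126 in KO. Chromosome 6 gave 0.0554, 0.404 and 0.497 in WT and between -0.0041 and 0.0907 in KO. For chromosome 14 they were 0.4665, 0.388 and 0.0895 in WT and between 0.0836 and 0.0997 in KO. Over the 6 libraries the 15 other chromosomes lay between -0.198 and 0.327.

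These shifts bear on the calls. When each library was centred on its chromosome medians within a day, 15 genes passed at day 0 (6 higher, 9 lower) and 12 of them were among the 21. *Pfdn2* and *Nit1* kept their calls on that scale, each with a difference of -1.33, as did *Cryge* (-3.18), whereas *Calr* (-0.50, adjusted p = 0.118), *Asna1* (-0.38, adjusted p = 0.133), *Fbxo25* (-0.60, adjusted p = 0.116) and *Atg14* (-0.92, adjusted p = 0.0904) lost theirs. *Zfy1* lost its call by construction, since the Y median is taken over the 6 tested Y-linked genes, *Zfy1* among them, which were all higher in KO, so that centring subtracts the difference itself (0.89 in place of 2.91). The other calls lost were *Crygd* (-3.02), *Ngfr* (-1.44), *Trappc1* (-1.21) and *Ssh2* (-0.997), with adjusted p between 0.0531 and 0.0682. With the genes of chromosomes 1, 6, 8, 11, 14 and Y left out altogether, 6 of the 21 remained. Most of that loss was by construction, since 11 of the 16 falls, *Baiap2* and *Zfy1* lie on the chromosomes removed. DNA copy number was not measured in these samples, and its part in the chromosome medians was not tested.

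*Zfy1* was one of a set of Y-linked genes that were higher in KO. E14 cells are male and carry a Y chromosome. *Zfy1*, which encodes a zinc finger transcription factor, rose from 0, 0.426 and 0.508 FPKM in WT to 9.62, 9.46 and 7.14 in KO (2.91, standard error 0.254, adjusted p = 0.000678) and did so again at day 4 (2.71, adjusted p = 0.00125). Its paralog *Zfy2* was at 0, 0.0312 and 0.0802 FPKM in WT and at 1.94, 1.48 and 1.11 in KO (1.26, adjusted p = 0.0569), and reads may have been split between them.

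The other expressed Y-linked genes varied among the WT libraries. *Eif2s3y*, a translation initiation factor gene, gave 1.50, 11.7 and 25.4 FPKM in WT and 49.6, 50.4 and 38.7 in KO. *Ddx3y*, an RNA helicase gene, gave 0.844, 6.60 and 15 against 27.6, 27.7 and 20.4, and the histone demethylase homologue *Uty* gave 0.230, 1.31 and 3.84 against 8.30, 6.48 and 7.96. WT replicate 1 was the lowest for these genes, and KO was higher than each WT library. At day 4 *Eif2s3y* stood at 1.31, 19.5 and 25.6 FPKM in WT replicates 1, 2 and 3, in the same order as at day 0. All 6 tested Y-linked genes were separated in this way with a median difference of 2.03, although only *Zfy1* passed the test; *Uba1y* had an adjusted p of 0.148 and *Ddx3y* of 0.245. *Kdm5d* and *Usp9y* stayed below 1 FPKM in all 6 libraries and *Sry* was listed at 0. *Xist*, the X-linked silencing RNA, overlapped between the lines, at 4.52, 5.81 and 4.08 FPKM in WT and 5.16, 7.36 and 2.91 in KO.

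Both lines expressed the markers of undifferentiated mESCs. The FPKM of the 8 markers summed to between 3496 and 4285 in WT and between 3952 and 4776 in KO. *Pou5f1*, the central pluripotency factor, measured 637, 691 and 614 FPKM in WT and 627, 634 and 660 in KO, a difference of -0.01. *Sox2*, its partner, measured 119, 122 and 124 in WT and 162, 154 and 155 in KO, with no overlap and a difference of 0.36 (adjusted p = 0.488). *Esrrb* (0.14) and *Klf4* (0.15), factors of the naive network, overlapped between the lines.

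Markers of other cell types were low in both lines. The neural progenitor markers *Pax6*, *Hes5*, *Fabp7* and *Zfp521* were below 1 FPKM in all 6 libraries, and the 6 markers summed to between 3.67 and 11.9 FPKM in WT and between 2.07 and 5.85 in KO. Of 9 fibroblast and feeder markers, 7 stayed below 1 FPKM, and the sums were between 2.09 and 3.01 in WT and between 2.26 and 5.98 in KO. Sums of the primitive endoderm markers were between 2.13 and 8.85 in WT and between 0.718 and 3.62 in KO, those of the primitive streak between 5.62 and 13.9 and between 1.09 and 21.6, and those of trophoblast between 1.96 and 4.47 and between 0.538 and 2.12. The groups overlapped for each of these sums, and over the 8 single values tested, *Fyn* and the number of genes at 0 among them, the exact permutation p-values adjusted by Benjamini-Hochberg were between 0.533 and 0.900. In bulk libraries, fewer cells of a type and less RNA per cell cannot be told apart.

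Of 31 gene lists covering pluripotency, lineages, cell cycle, signalling and metabolism, 30 had no member that passed the test, and the exception was the sex-linked list through *Zfy1*. Their medians and the spread of single libraries are therefore given as descriptions. The naive pluripotency list (21 tested) had a median of -0.0748, with 2 members separated with KO higher and 3 with KO lower. *Nr0b1*, an X-linked nuclear receptor of the naive network, was at 39.6, 24.3 and 32.8 FPKM in WT and 46.0, 62.6 and 87.3 in KO (0.98, adjusted p = 0.252). *Nanog*, on chromosome 6, was at 355, 503 and 530 in WT and 286, 348 and 251 in KO (-0.64, adjusted p = 0.34). *Dppa3*, which protects DNA methylation in the zygote and marks a subset of mESCs, was at 0.783, 111 and 51.7 FPKM in WT and 0.640, 10.0 and 0.876 in KO, so that WT replicate 1 lay among the KO libraries. Without WT replicate 1 the median of this list was -0.420, and without KO replicate 3 it was 0.129. The core pluripotency list (15 tested) had a median of 0.106, which lay between 0.0224 and 0.375 without 1 library.

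Genes of the exit from the naive state differed more between libraries than between lines. *Otx2*, a factor of the formative epiblast, was at 1.02, 8.57 and 9.00 FPKM in WT and 0.397, 0.395 and 12.4 in KO, so that KO replicate 3 lay with the higher WT libraries. The de novo DNA methyltransferase gene *Dnmt3b* was at 13.5, 9.21 and 16.3 in WT and 15.2, 15.3 and 49.7 in KO. *Spry4*, an inhibitor induced by ERK signalling, was at 6.70, 0.119 and 0.188 in WT and 2.38, 0.107 and 37.6 in KO. For each of these 3 genes KO replicate 3 was the highest of the 6 libraries. The formative and primed list (18 tested) had a median difference of 0.279, and without KO replicate 3 it was -0.110. For FGF and ERK (23 tested) the median was 0.104, and without that library it was -0.187.

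Within the formative list, *Lef1*, a Wnt effector, was the clearest case of separation, with 0.782, 1.01 and 0.176 FPKM in WT and 4.55, 3.07 and 1.89 in KO (1.32, adjusted p = 0.141). *Gsc*, a homeobox gene of the primitive streak, was separated the other way, at 1.29, 7.49 and 3.81 in WT and 0.432, 0.648 and 0.0949 in KO (-1.73, adjusted p = 0.112). *Fgfr1*, an FGF receptor encoded on chromosome 8, was at 16.9, 21.0 and 21.4 FPKM in WT and 10.9, 12.6 and 13.7 in KO (-0.63, adjusted p = 0.448). With each library centred on its chromosome medians, the *Fgfr1* difference was -0.31. *Spred2*, an inhibitor of the ERK cascade, was at 17.4, 14.6 and 16.2 in WT and 28.5, 22.4 and 35.3 in KO (0.78, adjusted p = 0.137). *Id3*, a target of BMP signalling, and *Myc*, a gene induced by growth factors, overlapped between the lines. *Id3* was at 31.0, 3.98 and 5.25 FPKM in WT and 12.2, 3.56 and 3.80 in KO, and *Myc* at 14.7, 0.486 and 1.01 in WT and 5.49, 1.17 and 14.8 in KO. In WT, replicate 1 was the highest for both genes, whereas in KO replicate 1 was the highest for *Id3* and replicate 3 for *Myc*.

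**Figure D4:**
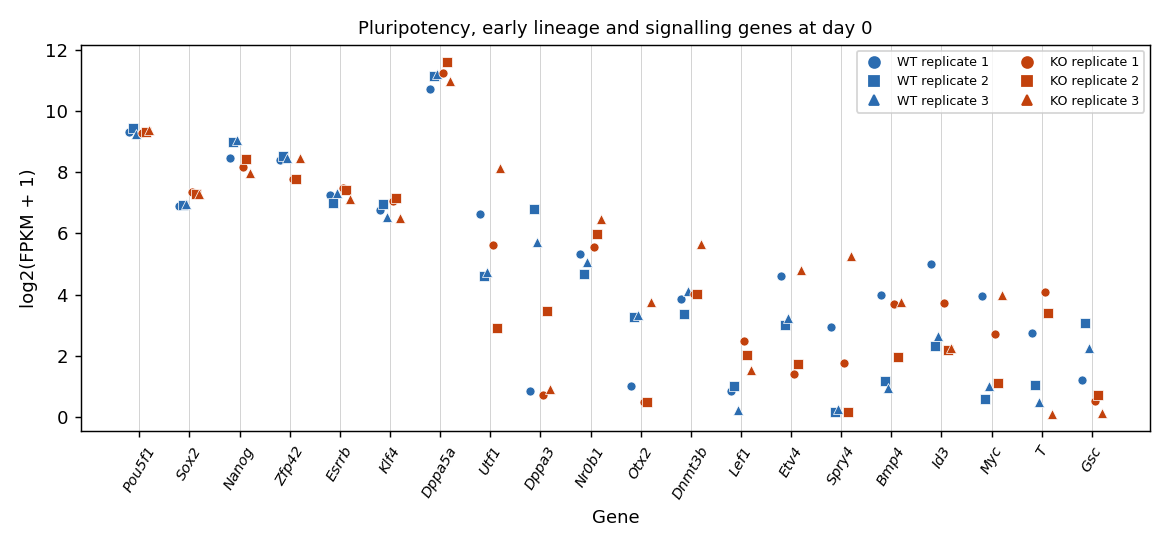
Levels of genes of the pluripotent state, of early lineages and of signalling in each day 0 library, with log2(FPKM + 1) on the vertical axis, WT in blue and KO in red. Pou5f1 is nearly level across the 6 libraries and Sox2 is higher in each KO library than in each WT library, while Utf1, Dppa3, Otx2, Spry4, Bmp4 and Myc range widely within both lines.

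Of the genes that the study followed by qPCR in both lines, none passed the test at day 0. *Sox1*, an early neural factor gene on chromosome 8, was at 1.90, 0.662 and 0.986 FPKM in WT and 0.854, 0.722 and 1.79 in KO (-0.03). The Notch ligand gene *Jag1* was at 1.92, 0.825 and 1.56 in WT and 2.66, 3.50 and 2.86 in KO (0.74, adjusted p = 0.508). *Hey1*, a Notch target, stayed below 0.6 FPKM in each library (-0.01), and *Mapre1*, which binds growing microtubule ends, stood at 22.0, 18.8 and 22.1 in WT and 20.5, 19.8 and 20.6 in KO (-0.04). Thus *Jag1* was the one gene of the 4 with separated groups.

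In the Notch pathway list, 30 of 35 genes were tested, with a median of 0.163 (receptors 0.102, ligands 0.350, cofactors and modifiers 0.163, targets -0.239). *Hes1*, a target, was at 39.5, 52.2 and 36.3 FPKM in WT and 38.9, 43.1 and 18.9 in KO. *Hes6* was at 7.25, 9.01 and 4.77 in WT and 2.37, 3.87 and 5.97 in KO. The median of the pathway was -0.0504 without KO replicate 3. The neural list (16 of 28 tested) had a median of 0.042 at day 0, which turned to -0.139 without KO replicate 3, and of -1.01 at day 4. *Stmn2*, described above, was its highest difference, and its lowest was *Meis2*, a homeobox gene, at 6.05, 10.96 and 7.61 FPKM in WT and 0.238, 2.49 and 1.91 in KO (-1.95, adjusted p = 0.192).

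No gene of the cell cycle lists passed the test. For the 28 G2/M genes the median difference was 0.127, with 10 separated with KO higher and 2 with KO lower (10.5% and 10.9% of all tested genes). At an unadjusted p below 0.05 there were 8 higher and 2 lower, against 5.85% and 8.71% of all. Without 1 library the median lay between 0.0757 and 0.2015. *Hmmr*, which organises spindle poles, was at 35.4, 37.5 and 49.95 FPKM in WT and 67.8, 62.9 and 90.9 in KO (0.83, adjusted p = 0.101). *Aurka*, the kinase of the same structures, was at 47.0, 44.8 and 45.4 in WT and 59.8, 63.2 and 77.2 in KO (0.53, adjusted p = 0.131). *Mki67* (0.54), *Nusap1* (0.46), *Cenpe* (0.44) and *Tpx2* (0.38) were separated in the same direction, while *Ccnb1* overlapped. *Ckap2*, on chromosome 8, was among the 2 that went the other way (-0.54, and -0.22 with each library centred on its chromosome medians).

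S phase genes showed the opposite order in part. Of 30 genes, 7 were separated with KO lower and 1 with KO higher, and the median was -0.0522 (0.0033 without WT replicate 1). The helicase subunit genes *Mcm5* (-0.47), *Mcm6* (-0.43), *Mcm3* (-0.39) and *Mcm2* (-0.38) were among the 7 and lie on chromosomes 8, 1, 1 and 6, where the chromosome medians were below 0 too. With each library centred on its chromosome medians the differences were -0.15, -0.21, -0.17 and -0.13. Not every subunit gene of this helicase was lower, since *Mcm7* lay between -0.008 and 0.150 over the alternative analyses. In the list of spindle checkpoint and M/G1 genes (30 tested) the median was 0.105, and 0.0124 without WT replicate 2, with 6 separated with KO higher and 3 with KO lower (4 and 3 at an unadjusted p below 0.05). *Ndc80*, a kinetochore protein gene, was at 20.8, 25.3 and 28.4 FPKM in WT and 35.7, 31.6 and 33.2 in KO (0.43, adjusted p = 0.185), and the checkpoint kinase gene *Ttk* at 24.0, 22.1 and 22.2 in WT and 31.04, 27.3 and 32.6 in KO (0.40, adjusted p = 0.192). The members with the lowest differences were *Pttg1* and *Anapc10*. Securin, *Pttg1*, was at 68.1, 87.0 and 35.3 FPKM in WT and 27.6, 17.4 and 28.7 in KO (-1.27, adjusted p = 0.111). *Anapc10*, a subunit of the anaphase-promoting complex on chromosome 8, was at 8.39, 17.3 and 14.4 in WT and 4.22, 7.78 and 4.69 in KO (-1.11, adjusted p = 0.119).

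The lists with medians farthest from that of all genes, apart from the sex-linked one, were the germline genes and the Atf4 targets. Of 22 germline genes, 7 were separated with KO lower and none with KO higher, and the median was -0.619. *Dazl*, an RNA-binding protein gene of germ cells, was at 5.13, 25.4 and 16.1 FPKM in WT and 1.69, 2.47 and 2.096 in KO (-2.20, adjusted p = 0.202). *Stk31*, a kinase gene of germ cells, was at 5.43, 9.72 and 4.09 in WT and 1.55, 1.70 and 1.96 in KO (-1.37, adjusted p = 0.137). *Asz1* was at most 0.0355 FPKM in KO, with 0.596, 3.75 and 1.54 in WT. WT replicate 2 was the highest library for these 3 genes, and its median deviation over the list was 0.799, while WT replicates 1 and 3 lay at -0.0559 and 0.0054 and the KO replicates at -0.553, -0.635 and 0.0874. KO replicate 3 thus lay above WT replicates 1 and 3, and without it the median difference was -0.957. At day 4 the median of the list was 0.146.

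Targets of Atf4, the transcription factor of the amino acid response, had a median difference of 0.602 over 22 genes, with 9 separated with KO higher and none with KO lower (8 and 0 at an unadjusted p below 0.05). Besides *Atf5* they included enzymes of serine synthesis. *Phgdh* was at 57.0, 66.2 and 60.0 FPKM in WT and 76.7, 95.5 and 150 in KO (0.75, adjusted p = 0.152), *Psph* at 14.2, 21.9 and 21.6 in WT and 26.3, 40.5 and 43.2 in KO (0.89, adjusted p = 0.141), and *Psat1* differed by 0.66. *Shmt2*, which feeds serine carbon to folate in mitochondria, was at 77.1, 108 and 116 in WT and 156, 189 and 164 in KO (0.77, adjusted p = 0.101). *Chac1*, a glutathione-degrading enzyme, was at 2.13, 9.17 and 14.9 in WT and 19.02, 25.1 and 32.6 in KO (1.71, adjusted p = 0.159). *Atf4* itself overlapped (0.19), as did *Asns* (-0.06). WT replicate 1 stood lowest over this list (-0.787 against -0.138 and 0.146 in WT replicates 2 and 3), and without it the median was 0.325. At day 4 the median was 0.154.

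Targets of Trp53 (21 tested) had a median of -0.289 (-0.164 without KO replicate 1), with 3 separated with KO lower and 1 with KO higher. *Plk2* was at 11.6, 27.5 and 13.3 FPKM in WT and 2.97, 6.73 and 8.41 in KO (-1.39, adjusted p = 0.129), and *Phlda3* and *Btg2*, both on chromosome 1, differed by -1.01 and -0.93. *Cdkn1a*, the cyclin-dependent kinase inhibitor gene most used as a readout of Trp53, overlapped (-0.07). Genes of glycolysis and the hypoxia response (28 tested) had 1 member separated and a median of 0.335, which was 0.103 without WT replicate 1 and 0.572 without WT replicate 3, and their library medians ran from -0.324 to 0.277 in WT and from -0.365 to 0.543 in KO. The mitophagy receptor gene *Bnip3*, for example, was at 1.12, 2.44 and 13.4 FPKM in WT and 37.2, 6.82 and 31.1 in KO.

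Among imprinted genes (28 tested, median 0.139, and 0.026 without KO replicate 3), the maternally expressed *Phlda2* was at 17.8, 8.29 and 4.49 FPKM in WT and 35.8, 21.6 and 56.1 in KO (1.88, adjusted p = 0.136). *Igf2*, which is paternally expressed, was at 0.627, 1.01 and 1.10 in WT and 0.213, 0.109 and 0.160 in KO (-0.71, adjusted p = 0.147) and separated at day 4 as well (-0.62). In the primitive endoderm list (17 tested, median -0.194, and -0.0573 without WT replicate 3) the collagen chaperone gene *Serpinh1* was at 8.56, 7.63 and 24.4 FPKM in WT and 24.7, 33.6 and 53.9 in KO (1.51, adjusted p = 0.172), and *Apoe* at 152, 206 and 245 in WT and 404, 365 and 362 in KO (0.93, adjusted p = 0.254). *Dab2*, an endocytic adaptor of that lineage, was lower in KO without overlap, at 0.708, 4.34 and 0.811 in WT and at most 0.178 in KO.

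**Figure D5:**
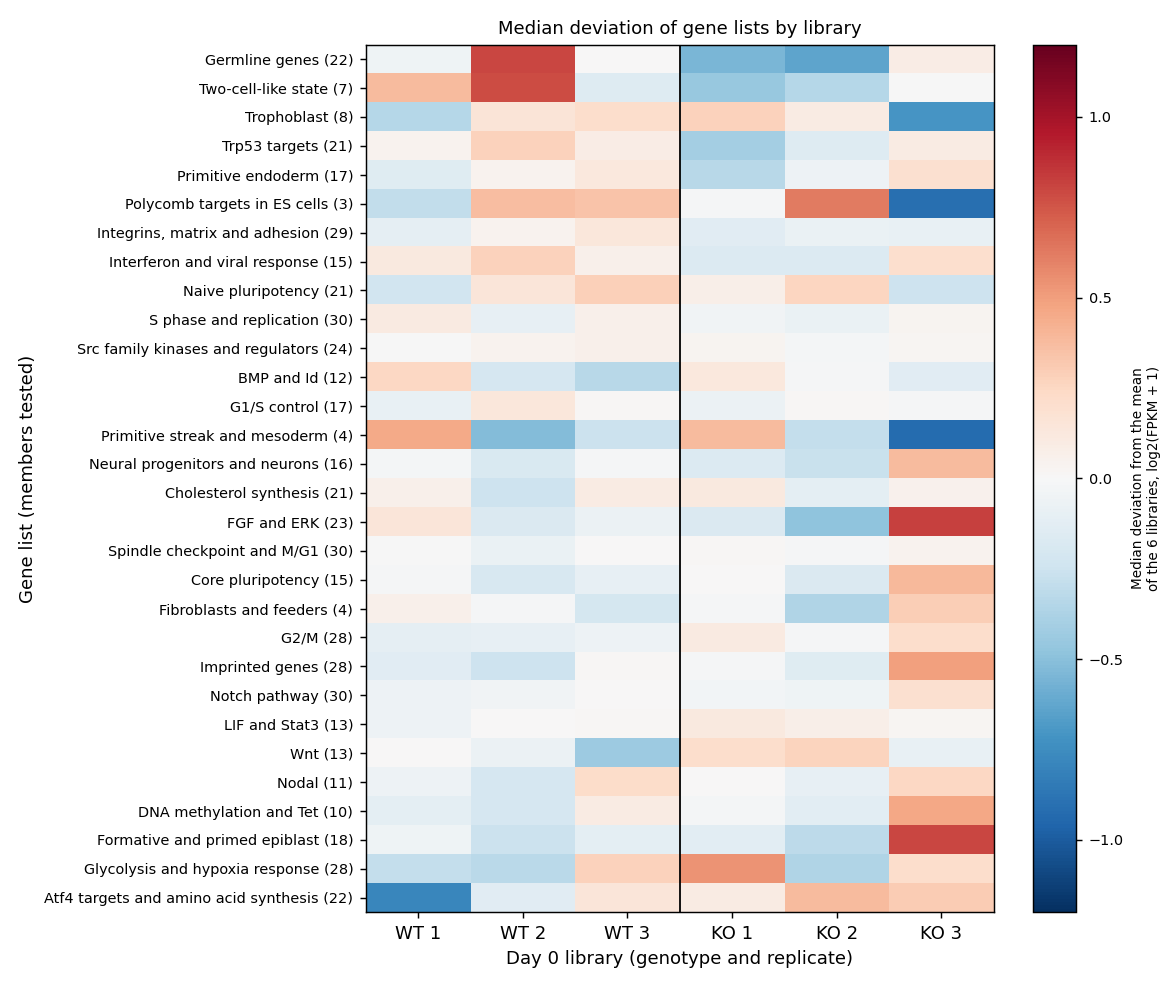
Median deviation of 30 gene lists in each day 0 library from each gene's mean over the 6 libraries, on the log2(FPKM + 1) scale, with the number of members tested in parentheses and the sex-linked list left out. Lists are ordered by their KO minus WT difference, from germline genes (-0.619) to Atf4 targets (0.602), and KO replicate 3 and WT replicates 1 and 2 hold many of the strongest colours.

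Finally, the called genes were followed in R1 mESCs in adherent culture, which share no sample with the E14 lines and have 1 library a time point. Of the genes that rose in KO, 4 were in that table, and 1 was at least 2-fold higher at 92.5 h than at 0 h on FPKM + 1, against 13.8% of 11373 genes. This was *Gpc3*, at 10.5 FPKM at 0 h and 27.7 at 92.5 h. Of the genes that fell in KO, 14 were in the table and 3 were at least 2-fold lower at 92.5 h, against 8.42% of all. These were *Mep1b* (3.36 to 0.320 FPKM), *Ngfr* (8.12 to 1.95) and *Atg14* (12.6 to 5.37). None of the 14 was 2-fold higher and none of the 4 was 2-fold lower. In R1 cells grown as floating aggregates in serum-free medium (SFEB), with 1 library at 0 h and 1 at 106 h, *Aldh1l2*, which rose in KO, was lower at 106 h (3.02 to 0.312 FPKM), against 6.32% of 11352 genes that were 2-fold lower. Of the genes that fell in KO, *Ngfr* alone was 2-fold lower there (5.386 to 2.098 FPKM). No gene of either set was 2-fold higher there, against 4.82% of all. *Pfdn2* stood at 110 and 121 FPKM at 0 and 92.5 h in adherent culture. *Fyn* itself went from 8.18 to 21.4 FPKM over that time in adherent culture, and stood at 9.88 and 11.01 FPKM at 0 and 106 h in SFEB.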

How the data were processed

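Bulk RNA-seq of E14 mESCs was analysed for 3 WT and 3 *Fyn* KO libraries at day 0, with the day 4 libraries of both lines in the same model. Libraries were made with the Nextera XT kit. The submitters' processing notes name TopHat2 2.0.8b, Cufflinks 2.1.1 and mm10 for these samples. The FPKM values were deposited by the authors as computed per gene, and no batch correction is stated for them. The R1 adherent and SFEB tables were deposited by the authors as FPKM too, and the SFEB values, on a linear scale after batch correction with some below 0, were set to 0 where negative. In the tables used, 20 columns of per-sample values were not used.

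Values were transformed as log2(FPKM + 1). Genes with at least 1 FPKM in at least 3 of 12 libraries were fitted in limma 3.58.1 (R 4.3.3) with 4 group means and a trended empirical Bayes estimate of variance, two-sided, and p-values were adjusted by Benjamini-Hochberg with a threshold of 0.05. Single values were compared by exact two-sided permutation. On simulated data for the day 0 comparison (12257 genes, 200 changed) limma called 73.1, 95.5 and 100% of genes changed by 1, 2 and 3 on the log2 scale, with 9 false calls. The changed genes were drawn from those with a mean log2(FPKM + 1) above 3 at day 0, and the noise was independent between genes. These rates therefore do not cover lower genes, or shifts that many genes of a library share. Gene positions and promoter windows came from RefSeq tables of GRCm38.p6, in which 11380 genes were matched by symbol and 823 by synonym. Named genes were the Src family, the genes the study measured by qPCR, the 15 largest rises and 15 largest falls among called genes with separated groups, filled where fewer passed by separated genes with the smallest p, members of gene lists by level and difference, Y-linked genes and *Xist*, and neighbours of *Fyn*. A gene that the rule names is not reported here. The members and lists were chosen with earlier results of these data known. Python 3.11.15 with pandas 2.3.3, scipy 1.17.1 and matplotlib 3.10.9 was used for summaries and plots. Alternatives changed the pseudocount, the filter, the normalization, the samples fitted, the replicate block, the variance model and the libraries left out.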

Additional observations from a re-analysis of the deposited data

Results flagged for a closer look

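*Jag1*, a Notch ligand gene, differed in opposite directions at the 2 days, with each KO library above each WT library at day 0 (2.66 to 3.50 against 0.825 to 1.92 FPKM, n = 3 each) and each below at day 4 (0.966 to 1.80 against 1.85 to 13.2 FPKM). Its KO minus WT difference was 0.74 at day 0 and -1.17 at day 4 on the log2(FPKM + 1) scale, and the day 4 value minus the day 0 value was -1.91, with an adjusted p of 0.997 in limma, so the change between days did not pass the test. Of 12257 genes tested, 28 had groups that did not overlap at both days in opposite directions. At day 4, WT replicate 1 alone held the highest value (13.2 FPKM, against 1.85 and 2.61 in the other two).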

How the results depend on the processing

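Each result was recomputed with 1 choice changed at a time, and none of the 21 genes called at day 0 changed direction in any of the alternatives. The 21 calls at day 0 became 35 with no filter on low values, 2 with the 6 day 0 libraries alone, 38 with the replicate block, 2546 with sample quality weights and 6 with the genes of chromosomes 1, 6, 8, 11, 14 and Y left out. Leaving out 1 library gave between 7 and 161 calls (161 without WT replicate 1, 10 without WT replicate 2, 9 without WT replicate 3, 7 without KO replicate 1 and 10 without KO replicate 2). The chromosome alternatives were chosen after the data were seen, and leaving chromosomes out removes the calls on them by construction. With quantile normalization 65.0% of the calls were lower in KO, with centring on chromosome medians 60.0%, and in the analysis as reported 76.2%. The 9 calls at day 4 became 24 with no filter, 18 with a minimum of 5 FPKM, 17 with quantile normalization, 0 with the 6 day 4 libraries alone (1330 genes at an unadjusted p below 0.05), 45 with weights, 5 with centring, 3 with those chromosomes left out and between 5 and 14 without 1 library. For the difference between days the count of 0 became 1 with no filter, 2 with the block, 2 with weights and between 0 and 5 without 1 library (5 without WT replicate 1 at day 0).

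Replicate numbers were not shown to pair the day 0 libraries. Deviations from the group means correlated at 0.0628, 0.339 and -0.115 between same-numbered WT and KO libraries, and only number 2 correlated best with its own. For same-numbered WT libraries of days 0 and 4 the values were 0.199, 0.220 and 0.224, and the day 4 pairs of the lines gave 0.136, 0.258 and 0.240, each highest with its own number, while for KO at days 0 and 4 they lay between 0.00112 and 0.0899. With the replicate block, 20 of the 21 genes were called, and *Aldh1l2* was not.

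List members called went from 1 to 3 with a pseudocount of 0.1, 3 with no filter, 2 with quantile normalization, 4 with median scaling, 5 with the block, 109 with weights, 0 with chromosomes left out and between 1 and 12 without 1 library. The 1 member called in the analysis as reported, *Zfy1*, is Y-linked and so is removed when chromosomes are left out. Of the 16 lists whose medians the report gives, 7 moved by more than the spread between libraries in at least 1 alternative: the Src list (-0.102 with centring, between -0.0637 and -0.0068 without 1 library), Notch (-0.0027 with weights, between -0.0504 and 0.264), naive pluripotency (between -0.420 and 0.129), core pluripotency (between 0.0224 and 0.375), spindle checkpoint genes (0.0635 with centring, between 0.0124 and 0.121), primitive endoderm (0.0452 with chromosomes left out) and Trp53 targets (-0.532 with weights). Of the other 15 lists, 10 did. Of the genes called at day 0, 4 changed at least 2-fold over the R1 course in adherent culture and 2 in SFEB populations (*Ngfr*, which is among the 4, and *Aldh1l2*, which is not), and 0 with a 4-fold limit. The cause of these changes was not tested. FPKM tables hold no counts, so depth is unknown and no counting interval was given.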
